A study of Mus musculus with 4 samples.

Results

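Enteroendocrine cells are the hormone-secreting cells of the gut epithelium. They arise from crypt progenitors that have started the secretory programme and then switch on Neurog3, a basic helix-loop-helix transcription factor that is required for the lineage in the intestine and is known to be expressed only for a short time. A set of further factors (Neurod1, Neurod2, Insm1, Nkx2-2, Pax4, Pax6, Isl1 and Rfx6) then acts in the precursors and in the hormone-producing cells. These 9 genes, taken by symbol, are described here. All 9 are among the 31053 genes counted, and the summed UMIs (unique molecular identifiers, 1 per captured RNA molecule) of each gene were read per cell type and library.

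The cells were living TOM+ cells of mouse duodenal crypts, profiled in 4 single-cell libraries (10x Genomics, 3' v3.1). The WT libraries (replicates 1 and 2) carry Atoh1CreER-T2 and the red Cre reporter R26RTom, and the APC-KO libraries (replicates 1 and 2) carry floxed Apc alleles (Apcfl/fl) as well. The sample label of the second genotype writes its driver as Atoh1Cre, and the design text of the series writes it as Atoh1CreER-T2. All mice received 2 doses of tamoxifen (1 mg/mL) 24 h apart by intraperitoneal injection, and crypts were taken 12 h after the second dose. Cre was driven from Atoh1, a secretory lineage gene, and only reporter-positive cells were sorted, so the sort set which cells could be seen. The labels name no animal, age, sex or batch for a library, so the spread between libraries may be partly technical.

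The authors kept 4814 and 3821 WT cells (replicates 1 and 2) but 356 and 6243 APC-KO cells, with 3009636 to 27285079 UMIs per library, and gave each cell 1 of 12 type names. APC-KO replicate 1 stands apart: its kept cells hold 5.15% of the UMIs of its matrix, against 37.6% to 50.3% in the other libraries. It has 5 cells named SEC-PRO, 15 named EEC-PRE, 45 named EC and 13 named NON-EC, whereas the other libraries have 387 to 863, 130 to 200, 270 to 387 and 188 to 305. Any pair of libraries shares 1 to 8 cell barcodes. The names were made from these same cells, so levels by type are described without a test. The names of the endocrine types were checked against marker lists. The summed level of 8 EC markers (among them Tph1, the enzyme of serotonin synthesis, and Tac1, the substance P precursor) was 62144 to 83095 CPM in EC and 7107 to 11552 CPM in NON-EC, where CPM is the gene's UMIs per 1000000 UMIs of that type and library. The 9 NON-EC markers (among them the hormone genes Ghrl, Cck and Gip) summed to 25273 to 42742 CPM in NON-EC and 4102 to 4464 CPM in EC. The 8 EEC-PRE markers, which include Neurog3, Neurod1 and Neurod2, summed to 3178 to 4846 CPM in EEC-PRE and to 3715 to 5722 CPM in NON-EC, so that list does not separate the precursor from NON-EC. In EC they summed to 2755 to 3422 CPM. That was below EEC-PRE within each library, but the ranges over libraries overlapped. Markers of SEC-PRO were mixed. The WT mean of Atoh1 was 163.6 CPM in SEC-PRO and 2.25 CPM in EEC-PRE, and that of Dll1 was 228.5 and 188.3 CPM. Hes6 (165.8 and 318.4 CPM) and Mfng (0.883 and 30.6 CPM) went the other way. Cbfa2t3 and Spdef, also on that list, are not reported here.

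The genes lie on 5 chromosomes of GRCm38 (GENCODE vM21). Neurog3 is at chr10:62133090-62134763 on the plus strand and Rfx6 at chr10:51677756-51730432 on the plus strand. Chromosome 2 carries Neurod1 (chr2:79452521-79456751, minus), Pax6 (chr2:105668900-105697364, plus), Insm1 (chr2:146221921-146225020, plus) and Nkx2-2 (chr2:147177546-147194243, minus). Pax4 is at chr6:28442334-28449353 (minus), Neurod2 at chr11:98325415-98329648 (minus) and Isl1 at chr13:116298281-116309689 (minus). Genes on the opposite strand overlap Neurog3 (Fam241b), Neurod1 (Gm26755), Nkx2-2 (Nkx2-2os and 6430503K07Rik) and Pax6 (Pax6os1), and Cerkl overlaps Neurod1 on its own strand. Use of strand in the counting is not given in the sources used here, so reads of these pairs may have been split or shared. Over the cells named EEC-PRE, EC or NON-EC, Fam241b had 734 UMIs, Cerkl had 213, and the other overlapping genes had 1 to 12 each.

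The factors of the Neurog3 and Neurod families bind E-boxes, the sequence CANNTG, which reads the same on both strands. Promoter windows from RefSeq (GRCm38.p6) matched 7 of the 9 genes in 8 windows, and the 250 bases before the RefSeq start are used here. That start is not always the end of the gene position given above: for Neurod1 and Nkx2-2 it lies 115 and 7841 bases inside the gene, for Neurog3 it is the gene's first base, and for Neurod2 it lies 3 bases inside. The windows of Neurog3, of Neurod1 and Neurod2 and of Nkx2-2 are shown because these genes differ in the order of their levels from SEC-PRO to NON-EC. Each is printed 5′ to 3′ on the strand of its gene, with every E-box in capitals.
Neurog3 (chr10:62132840-62133089, plus): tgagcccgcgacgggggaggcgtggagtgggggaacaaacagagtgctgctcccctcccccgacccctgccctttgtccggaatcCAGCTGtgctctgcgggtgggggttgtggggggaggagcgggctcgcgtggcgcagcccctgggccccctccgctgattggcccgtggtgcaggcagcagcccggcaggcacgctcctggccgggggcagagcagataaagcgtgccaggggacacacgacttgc
Neurod1 (chr2:79456637-79456886, minus): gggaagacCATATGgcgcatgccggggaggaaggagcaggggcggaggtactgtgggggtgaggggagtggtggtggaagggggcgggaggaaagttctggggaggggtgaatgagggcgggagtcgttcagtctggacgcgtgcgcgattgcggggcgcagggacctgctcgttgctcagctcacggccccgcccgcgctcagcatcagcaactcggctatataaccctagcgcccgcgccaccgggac
Neurod2 (chr11:98329646-98329895, minus): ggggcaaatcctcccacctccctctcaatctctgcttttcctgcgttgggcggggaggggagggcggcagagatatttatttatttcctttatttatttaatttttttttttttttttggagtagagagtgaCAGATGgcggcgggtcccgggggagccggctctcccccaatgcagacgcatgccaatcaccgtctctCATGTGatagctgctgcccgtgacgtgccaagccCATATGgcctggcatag
Nkx2-2 (chr2:147186403-147186652, minus): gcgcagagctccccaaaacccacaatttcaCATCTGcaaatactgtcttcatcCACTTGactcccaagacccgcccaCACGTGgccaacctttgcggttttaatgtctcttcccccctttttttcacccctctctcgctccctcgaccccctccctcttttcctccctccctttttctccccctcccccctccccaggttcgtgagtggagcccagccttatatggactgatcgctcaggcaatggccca
The Neurog3 window holds 1 E-box, 165 bases before the start, and the Neurod1 window holds 1, 242 bases before it. The Neurod2 and Nkx2-2 windows hold 3 each. The form CAGATG (or its reverse complement CATCTG) is in the Neurod2 and Nkx2-2 windows, and CATATG, which is its own reverse complement, is in those of Neurod1 and Neurod2. Isl1 has 1 E-box, the 2 windows of Pax6 have 0 and 1, and the window of Rfx6 has 0. Among all 32841 windows of this length, 66.2% hold a CANNTG, 14.4% a CAGATG or CATCTG and 3.46% a CATATG, so a match by itself is common for the first form. A match describes letters in the window and not binding.

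In WT, 99.6% to 100% of the cells of each endocrine type had a UMI of at least 1 of the 9 genes. In APC-KO replicate 2 this held for 95.4% of EEC-PRE, 98.4% of EC and 100% of NON-EC cells. In APC-KO replicate 1 it held for 100% of each. Of the UMIs of each gene in kept cells, 90.0% (Neurog3) to 97.3% (Isl1) were in EEC-PRE, EC or NON-EC cells. The WT cells had UMIs of a median of 5 of the 9 factors in EEC-PRE, 4 in EC and 5 in NON-EC, while the median was 0 in each of the other 9 types. In those types the share of WT cells with at least 1 factor was 1.11% to 16.98%, highest in PANETH (16.98% and 9.5%, at a median of 12644 and 10372 UMIs per cell) and SEC-PRO (8.66% and 9.56%). Cells outside the endocrine types with 5 or more factors numbered 0 to 5 per type and library. The median in APC-KO replicate 2 was 3 in EEC-PRE and in EC and 4 in NON-EC, at the lowest endocrine depth of the series (median 2406 to 2548 UMIs per cell, against 3066 to 4259 in WT). In APC-KO replicate 1, with 15, 45 and 13 such cells, it was 6, 4 and 6. That library had the highest endocrine depth (median 5727 to 8261 UMIs per cell). The highest level of Neurog3 in any non-endocrine type was 35.1 CPM (SEC-PRO, WT replicate 2), and its lowest in an endocrine type was 171 CPM (NON-EC, APC-KO replicate 1). For Neurod1 those values were 18.7 CPM (ISC, WT replicate 1) and 545 CPM (EEC-PRE, WT replicate 2).

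**Figure D1:**
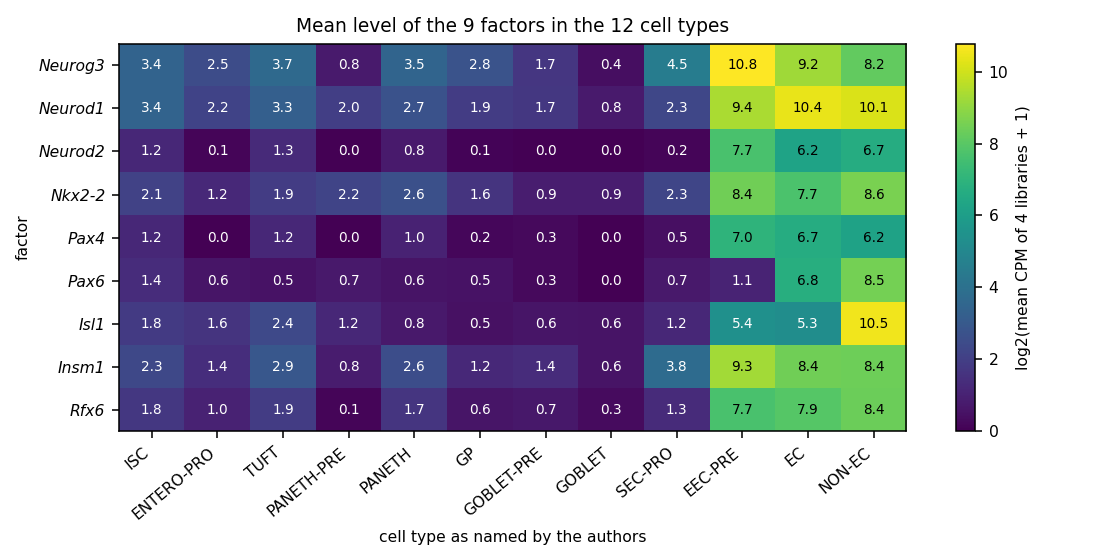
Mean level of each factor (rows) in the 12 types (columns) as log2(mean CPM of the 4 libraries + 1), with colour and printed value giving the same quantity. The 3 endocrine types at the right carry the high values, with 2 exceptions: Pax6 in EEC-PRE is as low as outside them, and Isl1 is high in NON-EC only.

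In SEC-PRO, the secretory progenitor, the earliest factors were read at a low level and in a small minority of cells. Neurog3 was at 29.6, 35.1 and 24.5 CPM in WT replicates 1 and 2 and APC-KO replicate 2, from 90, 78 and 100 UMIs. APC-KO replicate 1 had 0 UMIs among 25720, which allows up to 117 CPM and so says nothing about this level. After each cell was thinned to 2000 UMIs, 3.02%, 3.95% and 2.89% of SEC-PRO cells had a Neurog3 UMI in the 3 larger libraries, with exact 95% binomial intervals of 1.74% to 4.86%, 2.23% to 6.43% and 1.86% to 4.27%. GOBLET cells, which should lack the gene, had 1 of 163, 0 of 270 and 0 of 255, and a count of 0 allows up to 1.11% and 1.18%. Other non-endocrine types came nearer to SEC-PRO. By thinned share TUFT had 3 of 213, 0 of 119 and 3 of 232 cells, PANETH 3 of 106, 1 of 200 and 5 of 274, and ISC 6 of 555, 4 of 221 and 17 of 1212. By level, TUFT had Neurog3 at 27.3 CPM in WT replicate 1 (24 UMIs, exact 95% Poisson interval 17.5 to 40.6 CPM), which does not stand apart from SEC-PRO in that library, and at 5.30 and 15.1 CPM in WT replicate 2 and APC-KO replicate 2. Barcodes of 1 to 50 UMIs, which hold free RNA, had Neurog3 at 76.8, 53.4 and 40.5 CPM in the same libraries, above the SEC-PRO level. Neurog3 and Neurod1 had 85 and 73, 72 and 44, and 53 and 63 UMIs in those barcodes, and 90 and 19, 78 and 4, and 100 and 32 UMIs in SEC-PRO. The part of free RNA in the SEC-PRO values was not tested. These intervals and limits cover counting error only.

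Insm1, a zinc finger factor that acts early in endocrine differentiation, was at 15.5, 30.6 and 5.14 CPM in SEC-PRO (47, 68 and 21 UMIs). It was second to Neurog3 in both WT libraries but not in APC-KO replicate 2, where Neurod1 was above it. Neurod1 was at 6.25, 1.80 and 7.83 CPM and Nkx2-2 at 4.93, 6.74 and 3.42 CPM. Neither stood apart from other non-endocrine types. The WT mean of Neurod1 was 4.02 CPM in SEC-PRO, 13.6 CPM in ISC and 11.6 CPM in TUFT. For Nkx2-2 it was 5.84 CPM in SEC-PRO and 7.83 CPM in PANETH. For Insm1 it was 23.0 CPM in SEC-PRO, the highest of these types, and 8.34 CPM in TUFT. Barcodes of 1 to 50 UMIs had Insm1 at 46.1, 29.7 and 8.40 CPM in the 3 larger libraries. Neurod2 had 2 UMIs in all 4 libraries together and Pax4 had 5. The SEC-PRO cells with a Neurog3 UMI often carried Insm1 as well, in 12 of 23, 11 of 19 and 10 of 35 cells, against 1.54%, 1.90% and 0.483% of SEC-PRO cells without one. Neurod1 was read in 3, 2 and 6 of the same Neurog3 cells. Neurog3 and Insm1 were thus read together here in more cells than Neurog3 and Neurod1, in each of the 3 libraries. In WT, Insm1 was also read in more SEC-PRO cells of any kind. The totals were 20, 18 and 14 cells for Insm1 and 7, 3 and 15 for Neurod1.

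EEC-PRE, the precursor, had the highest Neurog3 of all 12 types in every library. Its level was 1916 and 1631 CPM in WT replicates 1 and 2, then 2170 and 1275 CPM for APC-KO. Further sets of 4 values keep this order. Compared with SEC-PRO in the same library this was 64.7-, 46.5- and 52.1-fold higher in the 3 libraries where both counts allow a fold. The gene was then lower in EC (677, 602, 596 and 508 CPM, 2.51- to 3.64-fold below EEC-PRE) and lower again in NON-EC (363, 326, 171 and 298 CPM, 4.28- to 12.7-fold below). The ranges of the 3 types did not overlap. A large part of the Neurog3 cells nevertheless had a later name: of cells with a Neurog3 UMI, 34.2% to 37.5% were EEC-PRE, 25.9% to 50% EC, 10% to 20.2% NON-EC and, in the 3 larger libraries, 4.15% to 7.14% SEC-PRO. After thinning, a Neurog3 UMI was found in 84.2% to 95.8% of EEC-PRE, 34.9% to 42.6% of EC and 24.4% to 31.5% of NON-EC cells.

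Neurod2 had the same peak. Its level was 228, 200, 219 and 164 CPM in EEC-PRE, 104.6, 58.8, 91.5 and 45.6 CPM in EC and 101, 125, 99.96 and 82.4 CPM in NON-EC. EEC-PRE was above both later types in all 4 libraries without overlap, and EC and NON-EC overlapped. Insm1 had 715, 887, 564 and 285 CPM in EEC-PRE, 408, 488, 267 and 204 CPM in EC and 434, 472, 243 and 179 CPM in NON-EC. Within each library EEC-PRE was 1.40- to 2.11-fold above EC and 1.59- to 2.32-fold above NON-EC, although the ranges over libraries overlapped.

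Neurod1, which is induced by Neurog3 and stays on in hormone-producing cells, ran the other way. Its level was 736, 545, 622 and 792 CPM in EEC-PRE and 1367, 1181, 1420 and 1470 CPM in EC, a 1.86- to 2.28-fold difference. NON-EC had 1181, 1073, 1157 and 1119 CPM, which was 1.10- to 1.31-fold below EC in each library and 1.41- to 1.97-fold above EEC-PRE. Both later types stood above EEC-PRE without overlap. The thinned share of cells with a Neurod1 UMI was 40% to 58.2% in EEC-PRE, 86.4% to 88.0% in EC and 82.2% to 92.3% in NON-EC.

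**Figure D2:**
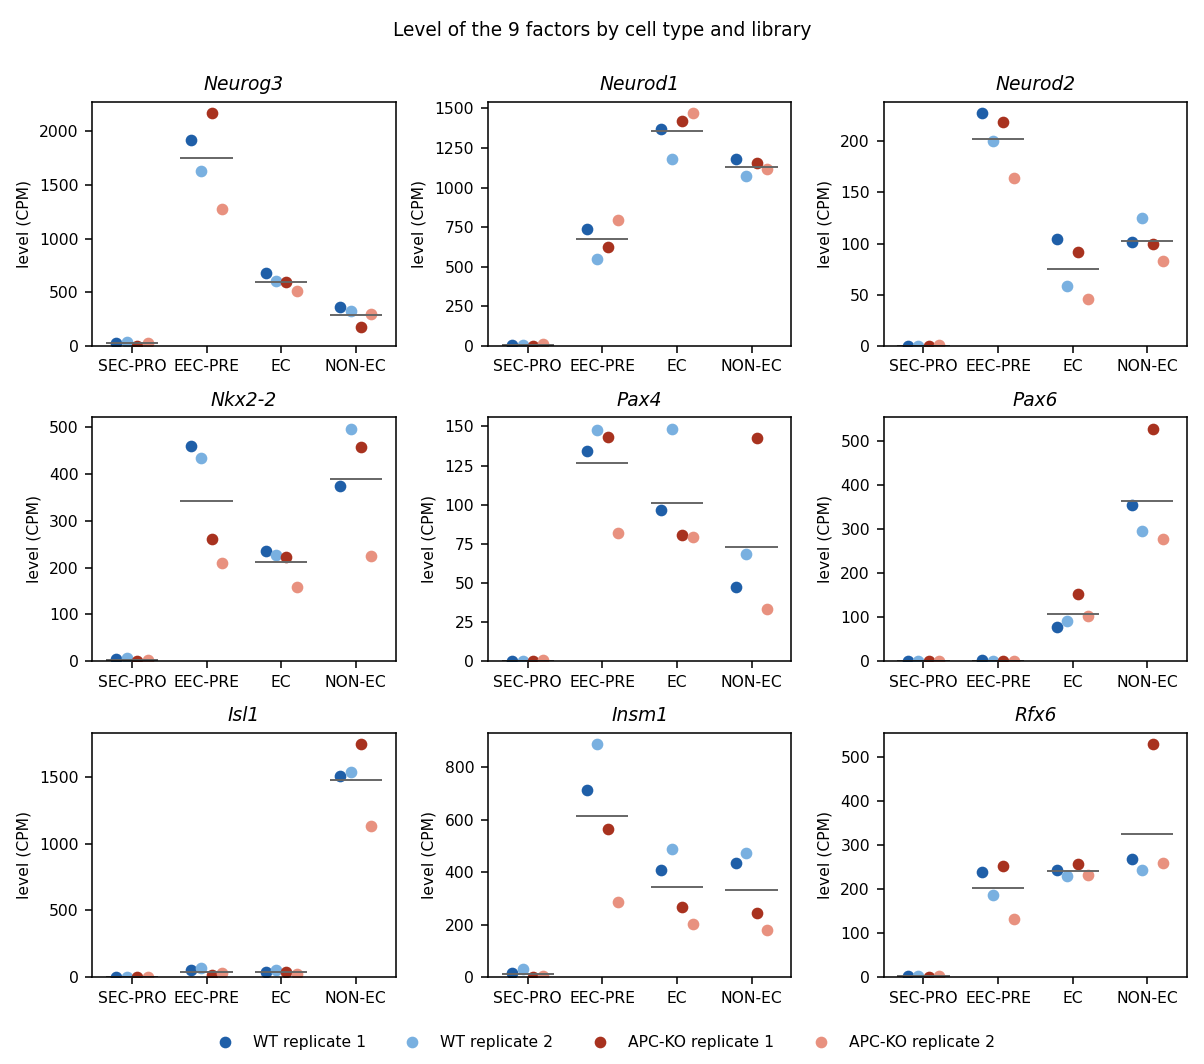
Level in CPM (linear axes from 0, scaled per gene) of each factor in SEC-PRO, EEC-PRE, EC and NON-EC, with 1 point per library and a grey line at the mean of the 4 libraries. Neurog3, Neurod2 and Insm1 have their highest mean in EEC-PRE, Neurod1 in EC, and Pax6 and Isl1 in NON-EC. SEC-PRO is near 0 on each of these axes.

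Pax6 and Isl1, homeodomain factors used by hormone-producing cells, were higher in NON-EC than in EC in every library, Isl1 by far more. Pax6 was all but absent from the precursor, with 2, 0, 0 and 1 UMIs in EEC-PRE (2.69, 0, 0 and 1.75 CPM). It was at 79.04, 90.8, 154 and 103.6 CPM in EC and at 355, 297, 528 and 277 CPM in NON-EC, 2.68- to 4.50-fold higher than in EC. None of the 3 ranges overlapped.

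Isl1 was at 1503, 1537, 1742 and 1135 CPM in NON-EC and at 35.1, 52.4, 40.3 and 23.9 CPM in EC. The difference within a library was 29.3- to 47.5-fold. EEC-PRE had 49.8, 66.6, 16.8 and 31.5 CPM, from 37, 37, 2 and 18 UMIs, which overlapped EC. After thinning, 91.0%, 89.4%, 84.6% and 76.7% of NON-EC cells had an Isl1 UMI, against 2.81% to 4.44% of EC cells. In GOBLET cells the count was 1 of 163 in WT replicate 1 and 0 in the other libraries.

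Nkx2-2, a homeodomain factor of endocrine differentiation, had a dip in EC. Its level was 459, 434, 261 and 210 CPM in EEC-PRE, 236, 227, 223 and 158 CPM in EC and 373, 496, 457 and 225 CPM in NON-EC. EC was the lowest of the 3 types in each library, while EEC-PRE and NON-EC changed order between libraries. Rfx6, a winged-helix factor, was at 240, 187, 252 and 131 CPM in EEC-PRE, 244, 229, 256.2 and 232 CPM in EC and 269, 244, 528 and 260 CPM in NON-EC. Within each library it was lowest in EEC-PRE and highest in NON-EC, by 1.12- to 2.09-fold between these types, while the ranges over libraries overlapped. EC was only 1.016- and 1.015-fold above EEC-PRE in WT replicate 1 and APC-KO replicate 1, so that order is not firm. The high NON-EC value came from 37 UMIs in the 13 cells of APC-KO replicate 1. Those cells also had Sst, the somatostatin gene, at 23177 CPM (637 to 1584 CPM in the other libraries) and Ghrl, the ghrelin gene, at 3284 CPM (11963 to 18808 CPM). The part of this hormone makeup in the factor levels was not tested.

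Pax4, a paired homeodomain factor, was low throughout. It had 135, 148, 143 and 82.2 CPM in EEC-PRE, 96.6, 148, 80.5 and 79.7 CPM in EC and 47.4, 68.3, 143 and 33.3 CPM in NON-EC, with the ranges overlapping. NON-EC was the lowest of the 3 types in 3 libraries and not in APC-KO replicate 1, where it rests on 10 UMIs. Over the 27 orders of type (9 genes, 3 pairs of endocrine types), 21 had the same direction in all 4 libraries, and the thinned shares gave 18 of 27. The count takes direction only and includes very small differences. For Pax4, NON-EC was 0.9986-fold of EEC-PRE in APC-KO replicate 1.

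In single cells, the Neurog3 UMI went with other factors differently in EC and NON-EC. NON-EC cells with a Neurog3 UMI carried Pax6 less often than those without: 23.2% against 68.4% in WT replicate 1, 13.6% against 60.7% in WT replicate 2, 25% against 77.8% in APC-KO replicate 1 (4 and 9 cells) and 12.3% against 57.6% in APC-KO replicate 2. In EC the same shares were close, at 24.4% against 20.9%, 19.8% against 25.9%, 40% against 52% and 24.4% against 22.3%. Neurod2 went the other way in both types. It was read in 34.7%, 21.4%, 40% and 21.3% of EC cells with a Neurog3 UMI, against 13.3%, 8.63%, 12% and 5.98% of those without, and in 39.3%, 56.1%, 50% and 39.7% of such NON-EC cells against 17.1%, 14.8%, 11.1% and 7.64%.

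Pax4 was also read more often in EC cells with a Neurog3 UMI, in 38.6%, 44.3%, 55% and 24.4% against 11.4%, 29.5%, 12% and 13%. Isl1 was read in most NON-EC cells of both kinds (79.5% or more with Neurog3, 84.7% or more without). Median depth was similar in cells with and without a Neurog3 UMI in the 3 larger libraries (2402 to 3519 against 2444 to 3236 UMIs in EC, 2390 to 3515 against 2451 to 3552 in NON-EC). Thinned to 2000 UMIs, the NON-EC shares of Pax6 were 16.5% against 50.5%, 6.25% against 44.7%, 33.3% against 50% and 8.16% against 43.1%. Of 16 such comparisons without thinning (8 factors in EC and NON-EC), 5 were higher with Neurog3 in every library and 1, Pax6 in NON-EC, was lower. After thinning these counts were 8 and 1.

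**Figure D3:**
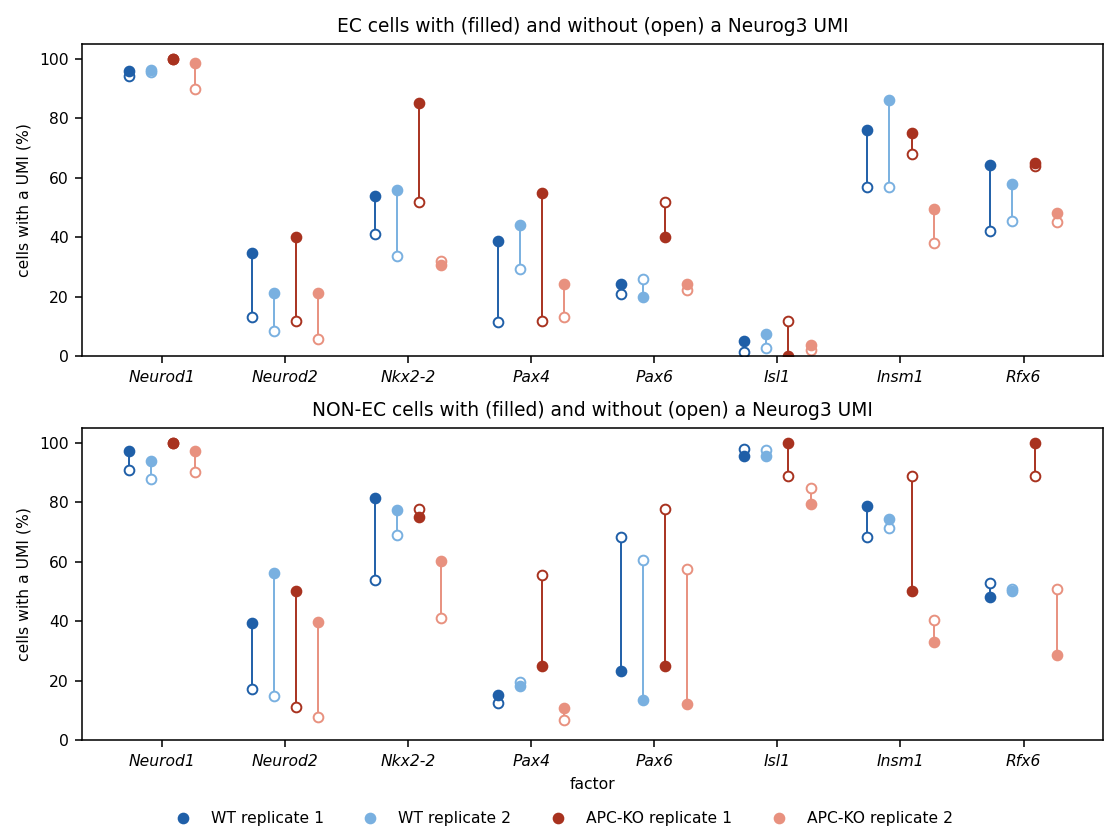
Percent of EC cells (top) and NON-EC cells (bottom) with a UMI of each factor, unthinned, among cells with a Neurog3 UMI (filled points) and without one (open points), joined by a line within each library. In NON-EC the filled Pax6 points lie at 12.3% to 25% and the open ones at 57.6% to 77.8%, whereas the Neurod2 points are in the opposite order in both types.

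For each factor, the genes with the most similar pattern were taken by Pearson r of the mean log2(CPM + 1) over the 12 types in the WT libraries, among 9855 genes. The types share their libraries, and r is a description. It is set largely by the difference between endocrine and other types. Neurod1 and Neurod2, which had opposite orders in EEC-PRE and EC, still had r = 0.98. A high r therefore does not show the same order among the endocrine types. Neurog3 was closest to Rcor2 (r = 0.97), Lypd1 (0.96) and Mex3b (0.95), all with their highest endocrine level in EEC-PRE. Myt1 and Celf3 were among the 3 closest to Neurod1, Pax4 and Rfx6 (0.99 for each). Syt13 was closest to Neurod2 (0.99), and Gfra3 was closest to both Nkx2-2 (0.98) and Insm1 (0.97). Pax6 was closest to Etv1 (0.99), followed by Pam, an enzyme that amidates peptide hormones, and Scg3, a granin (both 0.98). Isl1 was closest to Nefm (0.98), and Mboat4, the enzyme that acylates ghrelin, was also among its 3 closest genes (0.97). Among the 9 factors, Neurog3 and Insm1 had r = 0.97 and Neurog3 and Pax6 had r = 0.64.

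The second question of the design is whether loss of Apc, a negative regulator of Wnt signalling, altered these factors. Apc itself was at 130.5 and 117.5 CPM in the summed endocrine types of WT and at 134.2 and 137.4 CPM in those of APC-KO. The labels do not give the floxed part of the gene, and counts from its 3' end need not cover it, so this does not check the genotype. UMIs were summed per library within each type and compared with edgeR's quasi-likelihood test over all tested genes. None of the 9 factors passed an adjusted p of 0.05 in the sum of the 3 endocrine types, in EEC-PRE, in EC or in NON-EC. The background was also low: 0 of 10533 genes (0%) were called in the summed endocrine lineage, 0 of 8690 (0%) in EC, 9 of 7959 (0.113%) in NON-EC and 43 of 6573 (0.654%) in EEC-PRE. An unadjusted p under 0.05 was given to 913 genes in the lineage and 729 in EC, where DESeq2 called 24 and 13. SEC-PRO was not tested, with 5 cells in APC-KO replicate 1. Over the tested members the median log2 fold change was −0.18 in the lineage (9 genes), −0.29 in EEC-PRE (8), −0.26 in EC (9) and −0.18 in NON-EC (9), against 0.01, 0.00, 0.00 and −0.01 over all tested genes.

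Insm1 had the lowest unadjusted p of the 9 factors in the lineage, in EC and in NON-EC. In EEC-PRE the WT libraries had 715 and 887 CPM and the APC-KO libraries 564 and 285 CPM. In EC the WT values were 408 and 488 CPM, against 267 and 204 CPM, and in NON-EC they were 434 and 472 CPM, against 243 and 179 CPM. Both APC-KO libraries lay below both WT libraries in all 3 types. The log2 fold change (APC-KO over WT) was −0.84 ± 0.31 (SE) in EEC-PRE, −0.88 ± 0.22 in EC and −1.15 ± 0.24 in NON-EC, with edgeR adjusted p = 0.365, 0.395 and 0.102. In the summed lineage it was −0.86 ± 0.24 (adjusted p = 0.377, unadjusted p = 0.00623). Its sign was negative in all alternatives of these 4 fits, with adjusted p from 5.42e-07 to 1 in the lineage, 2.01e-04 to 0.999 in EEC-PRE, 4.94e-04 to 0.999 in EC and 3.58e-05 to 1.00 in NON-EC.

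Whether Insm1 was called depended on APC-KO replicate 1 and on the count filter. Without that library, Insm1 passed the threshold in every fit (log2 −1.21 in the lineage, −1.34 in EEC-PRE, −1.09 in EC and −1.24 in NON-EC), beside 934, 285, 405 and 344 called genes in all. Without APC-KO replicate 2 the values were −0.53, −0.33, −0.66 and −0.92 and did not pass. The lone APC-KO library is then assumed to vary like WT. With no filter on low counts it passed in the lineage, EC and NON-EC (adjusted p = 0.00625, 0.0124 and 0.00304). Sums of goblet, Paneth and immune markers were higher in APC-KO replicate 2 than in WT, and the enterocyte sum was not. The sum of 7 goblet markers, none of them at 0, was 26086 CPM in EEC-PRE, 15209 in EC and 24566 in NON-EC of that library, against 7508 to 12244, 5559 to 7824 and 8216 to 11050 CPM in WT. APC-KO replicate 1 had goblet sums of 12055, 4315 and 4470 CPM. The 7 Paneth markers, none at 0 there, summed to 4082, 4084 and 5042 CPM, against 2161 to 2639, 2458 to 3404 and 2607 to 2641 CPM in WT, and APC-KO replicate 1 had 925, 725 and 714 CPM. The 4 immune markers, 1 of them at 0 in EEC-PRE, summed to 462, 262 and 263 CPM, against 213 to 299, 103 to 107 and 119 to 130 CPM in WT, and APC-KO replicate 1, where 3 of the 4 were at 0, had 437, 117 and 99.96 CPM. The 6 enterocyte markers summed to 155.6, 491.9 and 505.7 CPM in EEC-PRE, EC and NON-EC of APC-KO replicate 2. WT had 126 to 165.6, 669.9 to 769.5 and 819.9 to 894.5 CPM, and APC-KO replicate 1 had 269.2, 790.5 and 799.7 CPM. The part of these markers in the result was not tested. By thinned share, 73.5% and 76.2% of EEC-PRE cells had an Insm1 UMI in WT and 66.7% (15 cells) and 40.4% in APC-KO. Unthinned, 23 of 197 EEC-PRE cells of APC-KO replicate 2 had no Neurog3 UMI. In WT these were 2 of 200 and 3 of 130, and in APC-KO replicate 1 they were 0 of 15. Of the 23 cells 34.78% had an Insm1 UMI, against 51.15% of the 174 with Neurog3. The part of these cells in the result was not tested.

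Nkx2-2 had lower values in the APC-KO precursor, at 261 and 210 CPM against 459 and 434 CPM in WT, without overlap. The log2 fold change in EEC-PRE was −0.82 ± 0.27 (edgeR adjusted p = 0.243), and it was −0.26 ± 0.22 in EC (0.7996) and −0.52 ± 0.29 in NON-EC (0.648). The test of whether the difference was unlike in EC and EEC-PRE gave 0.52 ± 0.21 for Nkx2-2 (unadjusted p = 0.0186, adjusted p = 0.861), beside 10 of 8521 genes called (0.117%). For Insm1 the same test gave 0.07 ± 0.19 (adjusted p = 0.993). Without APC-KO replicate 1, Nkx2-2 passed in EEC-PRE (−0.95, adjusted p = 0.0160, of a range up to 0.999) and in NON-EC (−0.84, 0.0139, of a range up to 1.00), and also in the lineage (−0.78, 0.00152, of a range up to 1), where it was −0.53 ± 0.21 with all libraries (adjusted p = 0.513). Without APC-KO replicate 2 its log2 fold change in EC and in NON-EC had the opposite sign (0.03 and 0.06).

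Isl1 had lower levels in both APC-KO libraries than in both WT libraries in the summed lineage and in EEC-PRE, and overlapped in NON-EC. In the summed lineage the WT libraries had 546 and 524 CPM and the APC-KO libraries 292 and 363 CPM, which gave −0.59 ± 0.19 on the log2 scale (edgeR adjusted p = 0.406). Within NON-EC, where nearly all of its UMIs lie, it was −0.06 ± 0.28 (adjusted p = 0.968), where WT had 1503 and 1537 CPM and APC-KO 1742 and 1135 CPM. In EEC-PRE it was −0.85 ± 0.39 (unadjusted p = 0.0377, edgeR adjusted p = 0.531), with WT at 49.8 and 66.6 CPM and APC-KO replicates 1 and 2 at 16.8 (2 UMIs) and 31.5 CPM. In EC it was −0.53 ± 0.35 (adjusted p = 0.712). With the 3 types mixed equally (limma) the lineage value was −0.15. NON-EC made up 305 of 892 and 188 of 588 endocrine cells in WT, and 13 of 73 and 217 of 725 in APC-KO.

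The other factors did not pass with all 4 libraries. Neurog3 was at 0.10 ± 0.31 in EEC-PRE, −0.15 ± 0.22 in EC and −0.30 ± 0.25 in NON-EC (log2 ± SE). Neurod1 was at 0.31 ± 0.28, 0.25 ± 0.22 and 0.06 ± 0.26, and both APC-KO libraries (1420 and 1470 CPM) were above both WT libraries (1367 and 1181 CPM) in EC. Pax6 was at 0.58 ± 0.24 in EC (adjusted p = 0.540), where its APC-KO levels of 154 and 103.6 CPM lay above the WT levels of 79.04 and 90.8 CPM, and at 0.16 ± 0.27 in NON-EC. It did not pass the count filter in EEC-PRE. Neurod2, Pax4 and Rfx6 lay between −0.53 (Pax4 in EC) and 0.44 (Rfx6 in NON-EC) over the 3 types. In the lineage Pax4 was at −0.30 ± 0.25 (edgeR adjusted p = 0.766), and it passed there without APC-KO replicate 1 (−0.58, adjusted p = 0.0323, of a range up to 1) and had the opposite sign without APC-KO replicate 2 (0.15).

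Without overlap between the genotypes in CPM, 3 of 9 factors were lower in APC-KO in the lineage, 4 of 9 in EC, 3 of 9 in NON-EC and 3 of the 8 tested in EEC-PRE, where 28.8%, 24.3%, 25.6% and 30.2% of all tested genes were. Higher without overlap were 1, 2, 0 and 0 factors, against 12.2%, 14.6%, 13.7% and 9.81% of all tested genes. Related genes were counted as well. Of 30 other endocrine regulators, 22 were tested in the lineage, 12 in EEC-PRE, 19 in EC and 18 in NON-EC, and 0 passed in either direction. Of 12 Notch pathway genes, 8, 6, 4 and 3 were tested, and 0 passed. Over all tested genes 0%, 0.654%, 0% and 0.113% were called in these fits, so a count of 0 says nothing particular about either list. The median log2 fold change of the regulators was −0.15 in the lineage, and that of the Notch genes was −0.44.

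**Figure D4:**
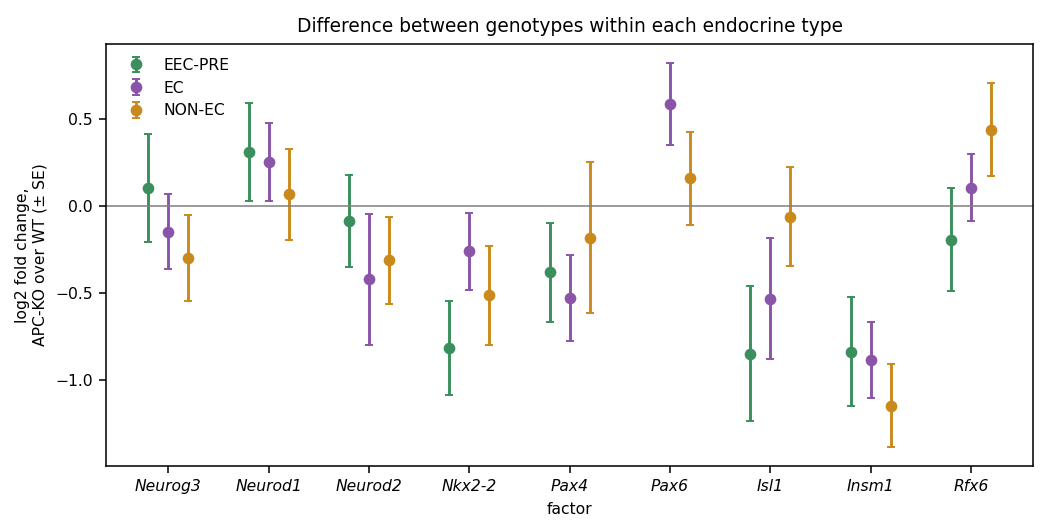
Log2 fold change (APC-KO over WT) ± SE of each factor within EEC-PRE, EC and NON-EC, from edgeR on summed UMIs of 2 libraries per genotype. Insm1 lies at −0.84, −0.88 and −1.15 in the 3 types, and no point passed the adjusted threshold. Pax6 has no point in EEC-PRE, where it was not tested.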

How the data were processed

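The authors deposited unfiltered matrices of UMI counts and per-cell tables with type names. Cell Ranger 3.0.2, STAR and mm10 are named in the submitters' processing notes. How cells were filtered, named and cleared of doublets is not given in the sources used here, and no doublet caller was run. Kept cells were matched by barcode and their counts summed per library and type, with 95% exact Poisson or Clopper-Pearson intervals. Thinning kept 2000 UMIs per cell and left out shallower cells. The genotypes were compared on these sums by edgeR 4.0.16 under R 4.3.3 (TMM, filterByExpr, quasi-likelihood test, Benjamini-Hochberg at 0.05) where each library had at least 10 cells. Alternatives used DESeq2 1.42.0 and limma 3.58.1. The members and lists were chosen with earlier results of these data known. The rule named the 9 members, list genes past the threshold, and the 3 genes most like each member with at least 200 WT UMIs, not all of which are reported here. The fits were also run on simulated counts with the same spread for every gene and library. That setting leaves out any excess spread of APC-KO replicate 1, so it does not check the calls given here.
The deposited tables also give each cell's UMI and gene counts and its mitochondrial percent, which were not reported on here.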

Additional observations from a re-analysis of the deposited data

How the results depend on the processing

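The counts of called genes depended on the processing. With the DESeq2 Wald test they were 24 in the lineage, 13 in EC, 3 in NON-EC, 11 in EEC-PRE and 0 for the interaction. With no filter beyond 1 UMI they were 309, 174, 141, 98 and 17. DESeq2 size factors in edgeR gave 16 in EEC-PRE. Cells with at least 2000 UMIs gave 5 in NON-EC and 13 in EEC-PRE, and thinned cells gave 18 in the lineage, 12 in EC and 4 in NON-EC. Leaving out 1 library at a time, the counts ran from 5 to 934 in the lineage, 0 to 405 in EC, 13 to 344 in NON-EC, 0 to 285 in EEC-PRE and 5 to 36 for the interaction, with the upper value each time without APC-KO replicate 1. The cause was not tested. The replicate numbers were not taken as pairs, with correlations of same-numbered deviations at −0.07 to −0.04. With 13 to 45 cells per endocrine type in APC-KO replicate 1, this check cannot exclude a shared batch. With the replicate block the counts were 16 in the lineage and 3 in NON-EC, and no member passed.

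Of 252 alternatives to the 25 printed member fold changes, 228 kept direction and side of the threshold, 12 newly passed and 12 changed sign. The sign changes were in Neurod1 in NON-EC (−0.0027 with no filter, −0.04 thinned) and Neurog3 in EEC-PRE (−9.3e-04 thinned), and otherwise came with a library left out. Those ranges were −0.58 to 0.15 for Pax4 in the lineage, −0.51 to 0.03 for Nkx2-2 in EC, −0.84 to 0.06 for Nkx2-2, −0.04 to 0.15 for Neurod1, −0.14 to 0.66 for Pax6 and −0.32 to 0.17 for Isl1 in NON-EC, −0.34 to 0.46 for Neurog3 in EEC-PRE, and −0.30 to 0.26 for the Insm1 interaction. Besides the calls named above, Isl1 passed in the lineage without APC-KO replicate 2 (−0.75, adjusted p = 0.0478, of a range up to 1). The orders of type held in 19 to 24 of 27 cases by level and 17 to 25 by share. The Neurog3 comparisons of co-detected factors, 6 of 16 in 1 direction in all libraries, were 6 to 12 with a library left out and 9 after thinning, alternatives chosen after seeing the data. The small number of cells limits what is said of APC-KO replicate 1 in SEC-PRO (5 cells) and in NON-EC (13 cells).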
